A study of Mus musculus with 12 samples.

Results

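Kit+ epithelial cells of the embryonic mouse submandibular salivary gland were compared by whether they carried the K5-Venus reporter. The comparison used 6 of the 12 RNA-seq libraries of the study, 3 of Kit+ K5+ cells (with Venus) and 3 of Kit+ K5- cells (without it), and covered the 17030 genes that passed a filter on low counts, of 43280 in the table. Glands came at embryonic day 15 from mice of the strain Tg(KRT5-Venus)1Sgkd, in which a keratin 5 promoter drives the fluorescent protein Venus. Cells positive for E-cadherin, the adhesion molecule of epithelia, were sorted on Kit and on Venus, and their total RNA was read as single reads of 50 nt. All libraries therefore share the transgene, the age and the E-cadherin gate, and the Kit- K5+ and Kit- K5- libraries, also 3 each, serve here for contrast. The library numbers fall into runs 1, 2 and 3 (numbers 1 to 4, 5 to 8 and 9 to 12), with 1 library of every population in each. The 2 Kit+ populations were set against each other within a run. The labels do not say that a run shares a sort, nor that replicates come from separate animals, so p-values measure the spread between these libraries, which may be technical. How many embryos went into a library the sources used here do not give.

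Kit is a receptor tyrosine kinase whose ligand, stem cell factor, supports the growth of several progenitor cells. In the developing salivary gland Kit marks epithelial cells of the end buds, the growing tips, while keratin 5 marks progenitors of the ducts and of the basal layer. Outside epithelium, Kit is the growth factor receptor of mast cells, which keep it throughout life, and of melanocytes. Mast cells store histamine and proteases such as carboxypeptidase A3, chymase and tryptase in granules together with the proteoglycan serglycin.

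Levels are given as CPM (counts scaled to a common library size), in the order of runs 1, 2 and 3. The 6 Kit+ libraries held 7629951 to 11391186 counts, and libraries of a population correlated at 0.927 to 0.946 (K5+) and 0.907 to 0.948 (K5-) in log2 CPM across genes. Kit+ K5- replicate 1 stood apart. It had counts in 29126 genes, against 20826 to 23303 in the other 5 Kit+ libraries, and mast cell genes took 0.769% of its counts against 0.00520 to 0.0346% in those 5. Transcripts of the mitochondrial genome took 22.5, 17.8 and 30.9% of counts in Kit+ K5+ and 10.96, 13.4 and 27.3% in Kit+ K5- libraries (23.7% ± 6.60 and 17.2% ± 8.81, SD, n = 3). The part of these differences in the results was not tested. In bulk libraries fewer cells of a type and less RNA per cell cannot be told apart.

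The genes behind the gate were examined first. Kit (chromosome 5, 75574916 to 75656722) stood at 334, 302 and 318 CPM in Kit+ cells with Venus and 444, 299 and 282 CPM in those without, against 9.999 to 26.3 CPM in the 6 Kit- libraries. All 6 Kit+ libraries thus lay far above all Kit- libraries, while the Kit+ groups overlapped (log2 -0.11 ± 0.26 for K5+ minus K5-, adjusted p = 0.914 in edgeR's quasi-likelihood test with Benjamini-Hochberg adjustment and a block on run, 0.958 without the block). Cdh1, the gene of E-cadherin, had 1107, 756 and 528 CPM with Venus and 906, 700 and 501 CPM without it. It was a little higher in K5+ in each run and did not pass (log2 0.17 ± 0.21, adjusted p = 0.823 with the block and 0.926 without).

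Krt5 (chromosome 15, 101707070 to 101712898), the keratin named in the strain, was low throughout. It had 1.56, 9.90 and 4.25 CPM in Kit+ cells with Venus and 0.316, 4.62 and 2.32 CPM in those without. The K5+ library was higher in 3 of 3 runs, but the groups overlapped and the difference did not pass (log2 1.17 ± 0.70, adjusted p = 0.584 with the block, 0.829 without). In Kit- K5+ cells Krt5 reached 22.8, 13.4 and 20.2 CPM, above each Kit+ library. Krt14, its usual partner keratin, had 13.9, 65.8 and 39.7 CPM in Kit+ cells with Venus and 6.95, 88.8 and 46.6 CPM in those without and lay higher in K5+ in run 1 alone. Venus itself was not analysed here.

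**Figure D1:**
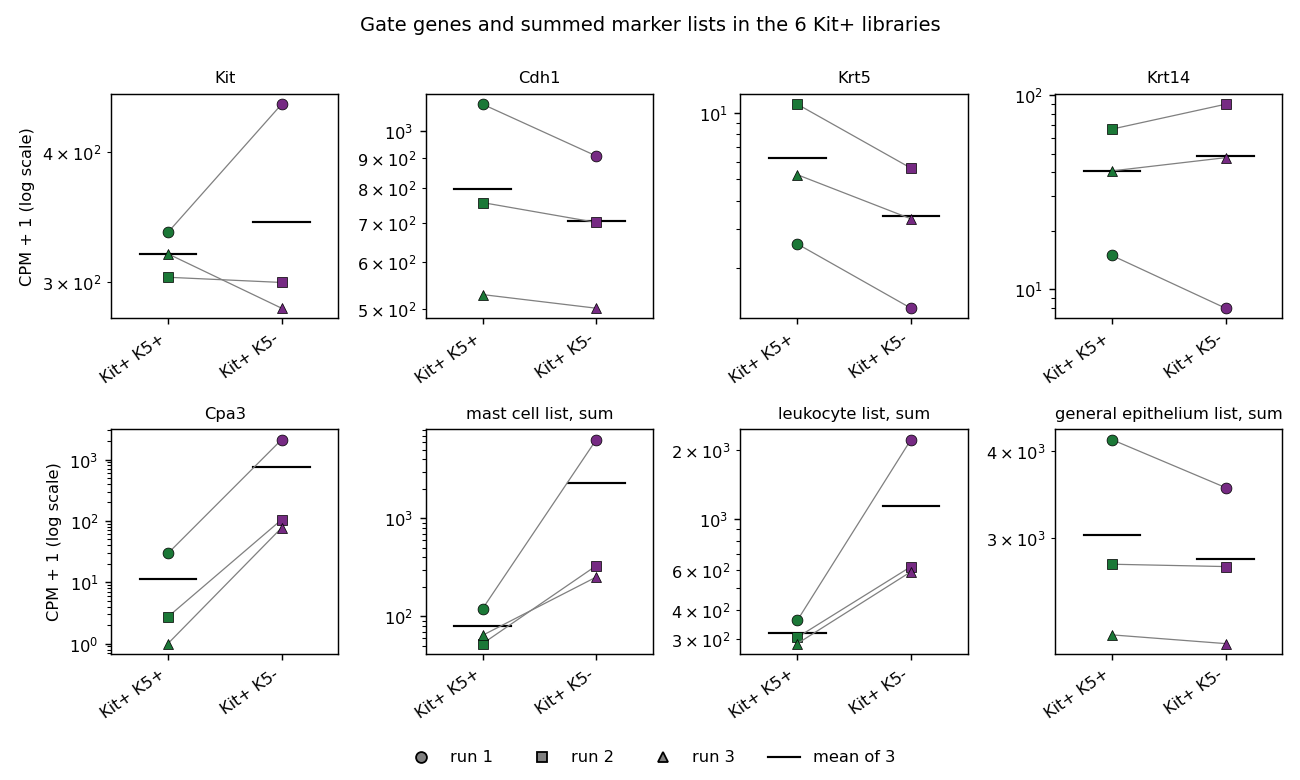
Levels in the 6 Kit+ libraries of Kit, Cdh1, Krt5, Krt14 and Cpa3 and of the summed mast cell, leukocyte and general epithelium lists, as CPM + 1 on a log axis, with lines joining libraries of a run and bars at the mean of 3. Kit, Cdh1 and the epithelial sum overlap between groups, while the mast cell sum lies at 51.8 to 119 CPM in K5+ and 251 to 6366 CPM in K5- libraries.

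Across all genes, 54 of 17030 passed 0.05 with the block on run (0.317%), and 25 of them were members of a mast cell or a leukocyte list, all 25 lower where Venus was present. Of these, 52 (0.305% of genes tested) fell and 2 (0.0117%) rose in Kit+ K5+ cells. Without the block 0 genes passed (0%), 1161 had an unadjusted p under 0.05 against 1781 with the block (4.57% of genes tested in the higher and 5.89% in the lower direction), and the smallest adjusted p was 0.163, so each of these 54 calls rests on the pairing by run. With the block, DESeq2 called 247 genes and limma-voom 76. Leaving out Kit+ K5- replicate 1 left 13 calls and leaving out Kit+ K5+ replicates 1, 2 or 3 left 5, 28 or 25. Fitted to the 6 Kit+ libraries alone, the block gave 120 calls, 46 of them shared with the 54, and no block gave 0.

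The 52 genes that fell did so in 3 of 3 runs each, against 19.6% of all genes tested that were lower in all 3. In 48 of them the highest K5+ library lay below the lowest K5- library, against 5.92% of all genes. The genes were chosen by their fall within runs, so nothing is read from these shares. All 52 were highest in Kit+ K5- replicate 1 among the Kit+ K5- libraries. Of the 54 calls, 11 were of the 27 genes of a mast cell list and 14 of the 70 of a leukocyte list. Another 29 belonged to neither, and 22 of these 29 are also known from immune or blood cells, by a sorting made after the calls were seen.

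**Figure D2:**
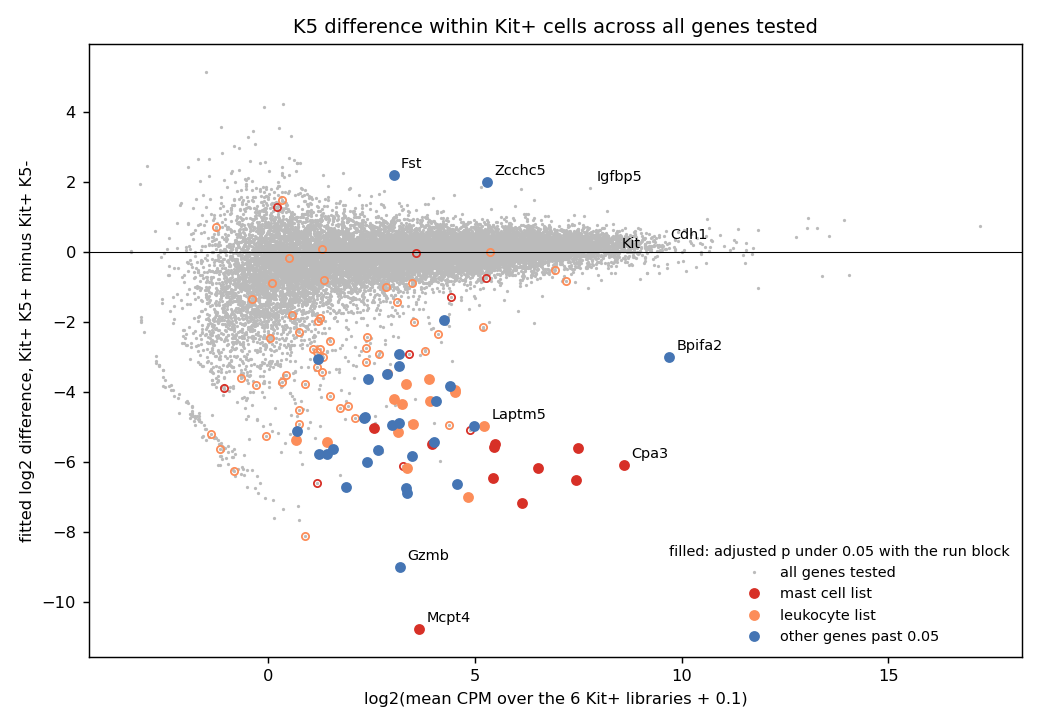
Fitted log2 difference (Kit+ K5+ minus Kit+ K5-) against log2 of the mean CPM of the 6 Kit+ libraries plus 0.1 for the 17030 genes tested, with the mast cell list in red, the leukocyte list in orange and other genes past 0.05 in blue; filled points passed 0.05. The 52 genes that fell lie below 0, and the 2 that rose, Fst and Zcchc5, lie near 2 on the log2 scale.

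Granule proteases of mast cells, the enzymes released when the cells degranulate, were far lower with Venus. The 9 listed proteases summed to 40.4, 4.71 and 0 CPM with Venus and 4088, 182 and 105 CPM without it, and 5 of the 7 tested fell. Cpa3, the carboxypeptidase of mast cell granules, had 28.6, 1.73 and 0 CPM in Kit+ cells with Venus and 2106, 104 and 76.2 CPM in those without. The lowest K5- library lay above the highest K5+ library, and the K5- libraries spanned 76.2 to 2106 CPM. The fitted difference was -6.10 ± 0.81 on the log2 scale (adjusted p = 0.00542 with the block, 0.275 without, and at most 0.0672 with any 1 Kit+ library left out). In Kit- cells Cpa3 had 0.274 to 1.62 CPM in K5+ and 4.20 to 6.797 CPM in K5- libraries.

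Cma1, a chymase, had 5.15, 1.63 and 0 CPM in Kit+ cells with Venus and 974, 40.3 and 12.9 CPM in those without, without overlap (log2 -6.52 ± 0.52, adjusted p = 9.74e-05 with the block and 0.183 without). Leaving out any 1 Kit+ library kept it past the threshold (largest adjusted p = 0.0145). The tryptases Tpsab1 and Tpsb2 are near-identical neighbours on chromosome 17, so short reads can be split between them. Tpsab1 had 2.30, 0.192 and 0 CPM with Venus and 399, 14.7 and 3.34 CPM without it (log2 -7.17 ± 0.42, adjusted p = 5.11e-05, 0.275 without the block). Tpsb2 had 4.23, 0.673 and 0 CPM with Venus and 532, 14.5 and 2.03 CPM without it. In Tpsb2 the K5+ library of run 1 lay above the K5- library of run 3, so its groups overlapped (log2 -6.19 ± 0.65, adjusted p = 0.00105 with the block and 0.277 without). Tpsb2 did not pass in DESeq2 with the block (adjusted p = 0.0516). Without Kit+ K5- replicate 1 neither tryptase passed (adjusted p = 0.123 for Tpsab1 and 0.559 for Tpsb2).

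Mcpt4, another chymase of connective tissue mast cells, had 0 counts in all 3 Kit+ K5+ libraries and 695 counts over the 3 Kit+ K5- libraries, at 65.4, 4.20 and 4.93 CPM. It passed with the block (adjusted p = 0.00504) but not without it (0.183) nor without Kit+ K5- replicate 1 (0.230).

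To show the sequences upstream of these genes, the 250 bases before the start were taken from RefSeq (GRCm38.p6) for the called mast cell genes. Of 11 called genes 8 had an entry, with 11 entries in all, and the 4 entries printed are those that held GATAA, the core of the motif bound by GATA factors such as Gata2. Capitals mark GATAA or its reverse complement TTATC, and all 4 are written 5′ to 3′ on the minus strand, the strand of the gene.
Cpa3 (chr3:20242182-20242431): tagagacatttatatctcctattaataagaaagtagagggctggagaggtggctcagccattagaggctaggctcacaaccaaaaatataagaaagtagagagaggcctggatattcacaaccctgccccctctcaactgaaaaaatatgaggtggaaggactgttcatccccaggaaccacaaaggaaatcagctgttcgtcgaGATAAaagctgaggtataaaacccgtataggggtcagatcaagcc
Cma1 (chr14:55944676-55944925): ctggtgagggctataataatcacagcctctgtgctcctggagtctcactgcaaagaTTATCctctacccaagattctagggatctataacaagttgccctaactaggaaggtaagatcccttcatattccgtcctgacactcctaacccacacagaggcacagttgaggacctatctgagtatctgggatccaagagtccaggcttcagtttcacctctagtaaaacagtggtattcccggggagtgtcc
Mcpt4 (chr14:56062311-56062560): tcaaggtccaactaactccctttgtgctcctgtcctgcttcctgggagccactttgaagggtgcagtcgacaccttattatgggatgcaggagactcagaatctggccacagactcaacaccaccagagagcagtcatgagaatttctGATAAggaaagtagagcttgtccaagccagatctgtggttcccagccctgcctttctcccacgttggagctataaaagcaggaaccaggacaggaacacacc
Ms4a2 (chr19:11623720-11623969): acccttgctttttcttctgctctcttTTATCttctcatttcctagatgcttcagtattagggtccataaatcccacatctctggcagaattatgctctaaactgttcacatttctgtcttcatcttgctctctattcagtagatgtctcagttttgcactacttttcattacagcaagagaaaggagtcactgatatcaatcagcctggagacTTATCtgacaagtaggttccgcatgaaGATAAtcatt
GATAA was found on either strand in these 4 entries, 3 times in Ms4a2 and 1 time in each of the others, and in 22.6% of all 32851 promoter windows of this length. CACGTG, an E-box, was found in 0 of the 11 entries and in 6.02% of all windows. A match describes the letters and not binding, and the motifs do not overlap.

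Genes for the making and storage of mast cell mediators were mixed. Hdc, the enzyme that makes histamine, had 6.71, 0.769 and 3.73 CPM in Kit+ cells with Venus and 1010, 36.7 and 19.0 CPM in those without (log2 -5.61 ± 0.96, adjusted p = 0.0278 with the block, 0.183 without). Srgn, the core protein of serglycin, had 2.76, 0.577 and 0.773 CPM with Venus and 218, 18.6 and 24.1 CPM without it. Groups overlapped for neither gene, and Srgn passed with any 1 Kit+ library left out (log2 -5.57 ± 0.47, adjusted p = 1.10e-04 with the block and 0.163 without). Cyp11a1, the enzyme of the initial step of steroid synthesis, also fell (1.10, 0.192 and 0 CPM against 83.8, 3.25 and 4.35 CPM, adjusted p = 0.0290 with the block and 0.240 without). Cyp11a1 did not pass in limma-voom with the block (adjusted p = 0.0632) nor without Kit+ K5- replicate 1 (adjusted p = 0.654).

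The other 5 tested genes of that role did not pass. Slc18a2, a vesicular monoamine transporter, had 18.9, 23.3 and 44.4 CPM with Venus and 81.4, 21.1 and 40.8 CPM without it. Hpgds, a prostaglandin D synthase, had 15.8, 12.7 and 6.70 CPM and 16.1, 7.56 and 11.9 CPM. The groups overlapped in both.

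Among receptors, Ms4a2, the beta chain of the IgE receptor, had 0.643, 0.0961 and 0 CPM with Venus and 29.8, 3.15 and 0.726 CPM without it (log2 -5.04 ± 0.91, adjusted p = 0.0388 with the block and 0.303 without). Ms4a2 did not pass without Kit+ K5- replicate 1 (adjusted p = 0.564). Csf2rb, the shared beta chain of the receptors for interleukins 3 and 5, had 2.85, 0.577 and 0.386 CPM with Venus and 237, 10.3 and 14.8 CPM without it, without overlap (adjusted p = 0.0246 with the block, 0.183 without). Its near-identical neighbour Csf2rb2 fell as well (log2 -5.44 ± 0.87, adjusted p = 0.0200, 0.230 without the block), and reads can be split between them. It did not pass in limma-voom with the block (adjusted p = 0.0633) nor without Kit+ K5- replicate 1 (log2 -3.85, adjusted p = 0.230). Il1rl1, the interleukin 33 receptor, had 1.01, 1.54 and 0 CPM against 158, 9.55 and 7.26 CPM and did not pass (adjusted p = 0.0618). Gata2, a transcription factor of mast cells and blood progenitors, had 1.38, 0.577 and 0 CPM with Venus and 223, 20.9 and 11.3 CPM without it (log2 -6.45 ± 0.75, adjusted p = 0.00197 with the block, 0.163 without).

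Over the whole mast cell list, 20 of 27 genes passed the filter and 11 of them fell. In 3 of 3 runs 17 were lower, against 19.6% of all genes tested, and the median log2 difference was -5.54, against -0.04 over all genes tested. The 7 others, among them Fcer1a, Gata1 and Mcpt1, had too few counts to be tested. A gene can pass the filter through the libraries of 1 population, so members seen mainly in Kit+ K5- cells were kept. The median and the count of 17 lean on this, and nothing is read from them. All 27 summed to 119, 51.8 and 63.2 CPM in Kit+ K5+ libraries (78.0 ± 36.0, SD, n = 3) and 6366, 328 and 251 CPM in Kit+ K5- libraries (2315 ± 3508, SD, n = 3). The sum was higher in K5- by 53.5, 6.34 and 3.98 times in runs 1, 2 and 3, and the groups did not overlap. The exact permutation test of the log2 sums gave p = 0.1, two-sided, the smallest that 3 against 3 can give, or 0.325 adjusted over 26 lists. The leukocyte, neuron, tuft and Pou2f3, Kit signalling, FGF and ERK, mitosis and cell cycle exit lists gave the same p. Without Kit+ K5- replicate 1 the log2 difference of the mast cell sum moved from -3.45 to -1.96, and 4 genes of the mast cell list passed.

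Most mast cell RNA thus sat in a single library, but the direction was the same in the other runs. In Kit- libraries the sum was 61.3, 46.0 and 78.5 CPM with Venus and 198, 97.2 and 98.1 CPM without. The Kit- K5+ and Kit+ K5+ libraries overlapped, and each Kit+ K5- library was above every Kit- library.

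In the leukocyte list 14 of 65 tested genes fell, or 6 without Kit+ K5- replicate 1 (median log2 difference -2.76 against -3.45), 4 without run 1 and 0 without the block. Laptm5, a lysosomal membrane protein of blood cells, had 5.88, 0.769 and 0.258 CPM in Kit+ cells with Venus and 174, 24.5 and 17.0 CPM in those without (log2 -4.99 ± 0.42, adjusted p = 1.10e-04 with the block, 0.310 without). It passed with any 1 Kit+ library left out (largest adjusted p = 0.00282). The signalling adaptors Tyrobp and Fcer1g, which serve receptors of myeloid cells and mast cells, both fell (adjusted p = 0.00177 and 0.0119 with the block, 0.275 and 0.390 without). Lcp2, an adaptor below antigen and Fc receptors, had 0.827, 0 and 0.129 CPM against 148, 9.97 and 11.8 CPM (adjusted p = 0.00459). Inpp5d, a lipid phosphatase of blood cells, had 0.368, 0.0961 and 0.129 CPM against 51.4, 5.25 and 3.63 CPM (adjusted p = 0.00177, 0.171 without the block).

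Markers of macrophages and of antigen-presenting cells were fewer among the calls. H2-Aa, a chain of MHC class II, had 3.77, 0.577 and 2.70 CPM with Venus and 38.4, 18.8 and 23.9 CPM without it (log2 -3.63 ± 0.44, adjusted p = 0.00305 with the block, 0.163 without). Its K5- libraries lay within a narrow range, unlike those of the mast cell proteases. Cx3cr1, the fractalkine receptor of macrophages, had 1.01, 0.673 and 0.258 CPM against 41.6, 5.46 and 6.39 CPM (adjusted p = 0.0389). Csf1r, which defines macrophages, had 1.01, 2.40 and 0.129 CPM against 21.6, 2.94 and 2.76 CPM and did not pass. Cd68, a lysosomal protein, was level, at 34.0, 46.1 and 43.9 CPM with Venus and 34.4, 44.4 and 44.8 CPM without it. Ptprc, which encodes the pan-leukocyte antigen CD45, had 2.48, 2.79 and 1.93 CPM against 52.9, 7.56 and 13.9 CPM and did not pass (log2 -2.83, adjusted p = 0.201).

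By role, 9 of 26 tested pan-leukocyte genes, 2 of 2 Fc receptor adaptors, 2 of 24 macrophage genes, 1 of 4 genes of antigen presentation, 0 of 5 granulocyte and 0 of 4 lymphocyte genes fell. Of the 70 listed genes 65 were tested, with a median of -3.45 and 47 lower in 3 of 3 runs, against 19.6% of all genes tested. As with the mast cell list, genes can pass the filter through 1 population, so nothing is read from this count. The list summed to 359, 303 and 284 CPM in Kit+ cells with Venus and 2221, 618 and 587 CPM in those without, a ratio of 6.19, 2.04 and 2.07 by run, without overlap (exact permutation p = 0.1, two-sided, 0.325 adjusted over 26 lists). Within Kit- cells the sums were 381, 311 and 239 CPM with Venus and 3486, 1253 and 782 CPM without. In leukocyte genes the Kit- K5- libraries were thus the highest of the 4 in each run, while for mast cell genes the Kit+ K5- libraries were.

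Among called genes outside both lists, Gzmb, which encodes the protease granzyme B of cytotoxic cells and of some mast cells, had 0.0919, 0 and 0 CPM in Kit+ cells with Venus and 30.1, 12.2 and 11.3 CPM in those without. These were 1 and 480 counts, a ratio of 538 with a 95% counting interval of 96.1 to 21301 (adjusted p = 0.0119 with the block). In Kit- K5- cells Gzmb had 2.03, 0 and 0 CPM. Nrros, a protein of myeloid cells, had 0.184, 0.192 and 0 CPM against 47.3, 7.77 and 5.23 CPM (log2 -6.89 ± 0.90, adjusted p = 0.00504, 0.182 without the block). Cd69, an early activation antigen of lymphocytes, had 0.276, 0.192 and 0.386 CPM against 20.3, 3.04 and 5.52 CPM. Dock10, an exchange factor for small GTPases, had 2.39, 2.11 and 2.19 CPM against 86.5, 11.4 and 21.8 CPM (log2 -3.84 ± 0.57, adjusted p = 0.0117, 0.163 without the block). In each of these the lowest K5- library lay above the highest K5+ library.

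Serpinb1a, an inhibitor of neutrophil proteases, and Slc7a8, an amino acid transporter, were not among the 22 and had the same profile. Serpinb1a had 0.368, 0.384 and 0 CPM with Venus and 130, 9.34 and 2.03 CPM without it, and Slc7a8 had 2.67, 0.769 and 0.129 CPM and 168, 7.98 and 6.53 CPM (adjusted p = 0.0278 for each with the block). The value in Kit+ K5- replicate 1 was over 10 times that of any other Kit+ library in both. Elf4, an ETS transcription factor, was present in all libraries and fell less, at 10.2, 6.05 and 5.92 CPM against 53.1, 16.4 and 21.3 CPM (log2 -1.96 ± 0.34, adjusted p = 0.0309, and 0.198 without Kit+ K5- replicate 1).

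**Figure D3:**
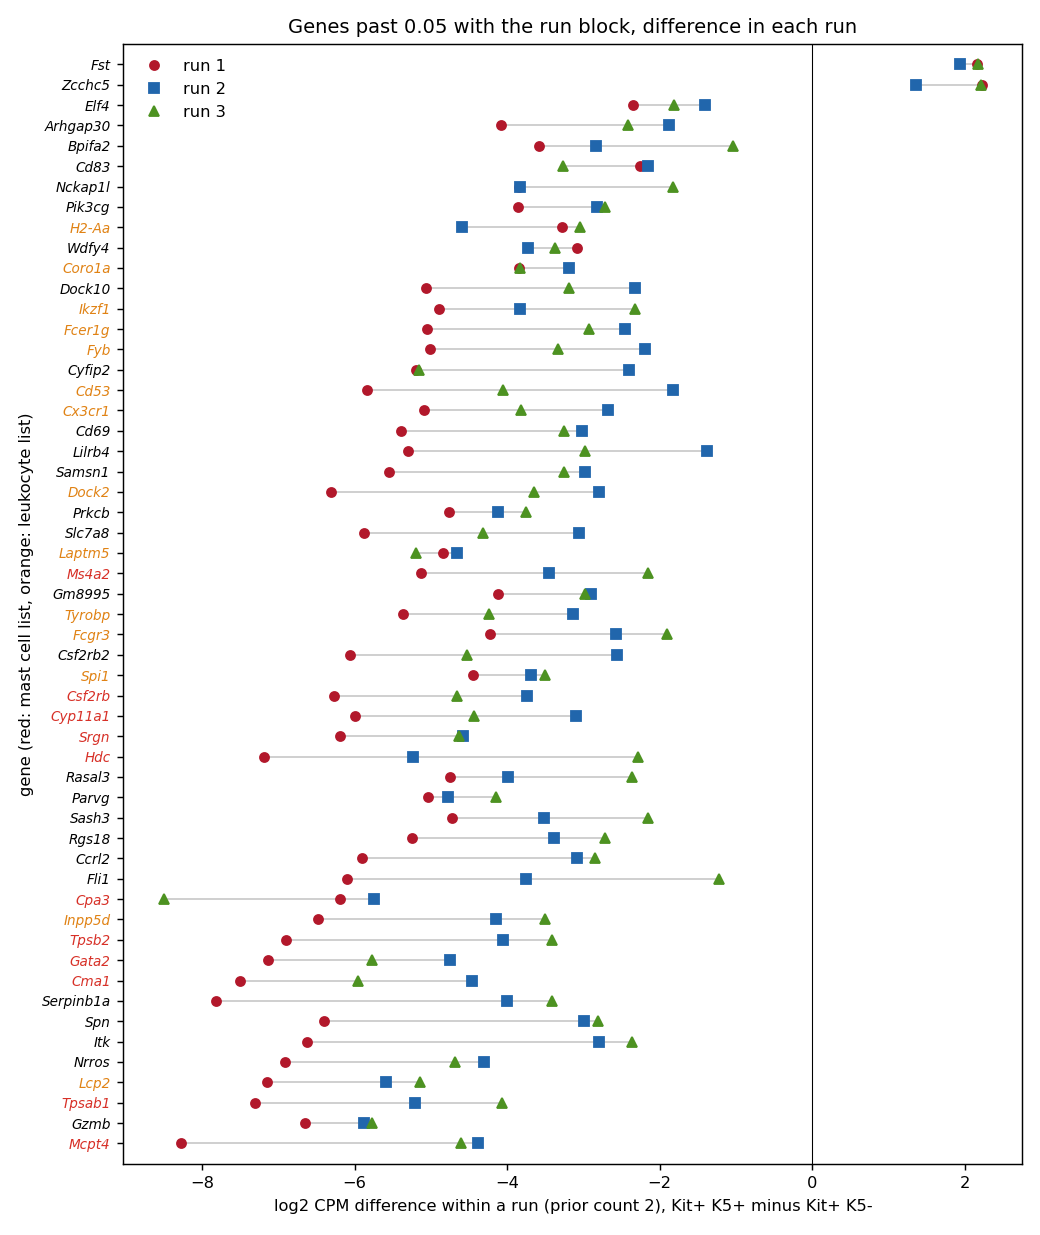
Difference in log2 CPM (prior count 2) between the Kit+ K5+ and the Kit+ K5- library of each run for the 54 genes past 0.05. The 52 genes that fell are below 0 in all 3 runs, and Fst and Zcchc5 are above 0 in all 3.

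With the 97 genes of the 2 lists removed before totals, filter and scaling, 6 of 16945 genes passed with the block (0.0354%), all lower in K5+ cells, and 0 passed without it. The 6 were Nrros and Ccrl2 (adjusted p = 0.0297 each), Cd69, Dock10 and Gzmb (0.0421 each) and the predicted gene Gm8995. Ccrl2 encodes an atypical chemoattractant receptor of leukocytes and had 0.827, 0 and 0 CPM with Venus and 61.8, 1.57 and 1.31 CPM without it. The 6 calls went to 0 without Kit+ K5- replicate 1, as they did without any 1 Kit+ K5+ replicate, and numbered 13 and 16 without Kit+ K5- replicates 2 and 3. With the mast cell list alone set aside 39 genes passed. Fst (adjusted p = 0.0506), Bpifa2 and Zcchc5 (0.0684 each) did not pass with the lists set aside. The median log2 difference over all genes was -0.04 with and without the lists. An unadjusted p under 0.05 was seen in 1711 genes with the lists set aside, against 1781 before. A gene's adjusted p also depends on the other genes tested, so a lost call need not mean a changed difference.

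The 7 called genes outside the lists and outside that later sorting were Fst, Zcchc5, Bpifa2, Serpinb1a, Slc7a8, Cyfip2 and the predicted gene Gm8995. Fst (chromosome 13, 114452290 to 114458951) encodes follistatin, a secreted antagonist of activin. It had 21.1, 6.25 and 12.5 CPM in Kit+ cells with Venus and 4.53, 1.47 and 2.61 CPM in those without, and the K5+ libraries all lay above the K5- libraries. Fst rose 4.55-fold (log2 2.19 ± 0.34, adjusted p = 0.0176 with the block, 0.219 without, and up to 0.156 with 1 Kit+ library left out). Fst did not pass in limma-voom with the block (adjusted p = 0.0630). Its differences by run were 2.17, 1.94 and 2.17 in log2 CPM. In Kit- cells Fst lay above all 6 Kit+ libraries in both groups, at 105, 75.8 and 45.6 CPM with Venus and 57.6, 39.5 and 46.7 CPM without.

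Zcchc5, named Rtl3 in RefSeq and derived from a retroviral gag gene, had 84.8, 47.1 and 54.0 CPM in Kit+ cells with Venus and 18.0, 18.2 and 11.5 CPM in those without, again without overlap. It rose (log2 2.002 ± 0.37, adjusted p = 0.0389 with the block, 0.303 without). In Kit- cells the order was the opposite, with 43.0, 34.6 and 6.86 CPM with Venus and 70.5, 80.8 and 41.9 CPM without, and the test of the difference between the 2 effects passed (log2 3.33, adjusted p = 0.00170 with the block, 0.0209 without). Zcchc5 was chosen by its rise in the Kit+ libraries, which enters that test too. Groups with no overlap and the higher values in K5+ were seen in both genes that rose, against 4.86% of all genes tested, a share from which nothing is read since the genes were chosen by their rise.

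Several further genes had larger values with Venus in each run and did not pass. Lpar4, a receptor for lysophosphatidic acid, had 10.02, 14.0 and 7.60 CPM with Venus and 2.42, 3.57 and 3.48 CPM without it (log2 1.74 ± 0.33, adjusted p = 0.0508 with the block, 0.163 without). Pou2af1, a coactivator of POU factors, had 22.8, 38.4 and 39.1 CPM against 9.27, 17.5 and 7.26 CPM (log2 1.62 ± 0.33, adjusted p = 0.0726). Neither gene's groups overlapped. Pou2f3, the POU factor that specifies tuft cells, had 201, 109 and 74.8 CPM against 47.0, 55.9 and 30.3 CPM (log2 1.49 ± 0.34, adjusted p = 0.139 with the block, 0.564 without). In Kit- libraries Pou2f3 did not exceed 10.4 CPM, so all 6 Kit+ libraries lay above all Kit- libraries. Of the 7 tested genes of the tuft and Pou2f3 list 0 passed, 4 differed upward and 3 downward, and the median was 0.22. By run the medians of that list were 0.02, -0.03 and 0.02, and 2 of its genes were higher in 3 of 3 runs, against 18.4% of all genes tested. Igfbp5, which binds and modulates insulin-like growth factors, had 466, 294 and 258 CPM against 74.8, 109 and 112 CPM (log2 1.83 ± 0.44, adjusted p = 0.163) and 207 to 2818 CPM in Kit- libraries. The Kit+ groups of Pou2f3 and Igfbp5 did not overlap either.

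Smaller differences of the same sign in 3 of 3 runs, none past the threshold, were found for the matrix genes Tnc and Thbs2, for Csn1s1, a milk casein, and for Rnase4, a secreted ribonuclease. Thbs2 had 18.4, 38.5 and 46.4 CPM with Venus and 10.4, 18.7 and 20.2 CPM without it, and its groups overlapped. Tnc had 22.2, 21.9 and 25.4 CPM with Venus and 10.3, 11.3 and 10.2 CPM without it, with little spread in either group. Rnase4 had 20.6, 28.1 and 28.5 CPM against 8.53, 15.2 and 11.2 CPM, and Csn1s1 had 122, 84.6 and 58.1 CPM against 28.8, 47.9 and 30.9 CPM. In Tnc, Rnase4 and Csn1s1 the groups did not overlap. These genes, like Lpar4, Pou2af1, Pou2f3 and Igfbp5, were chosen by their rise within each run. Nothing is therefore read from their lack of overlap, which 4.86% of all genes tested showed in this direction.

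**Figure D4:**
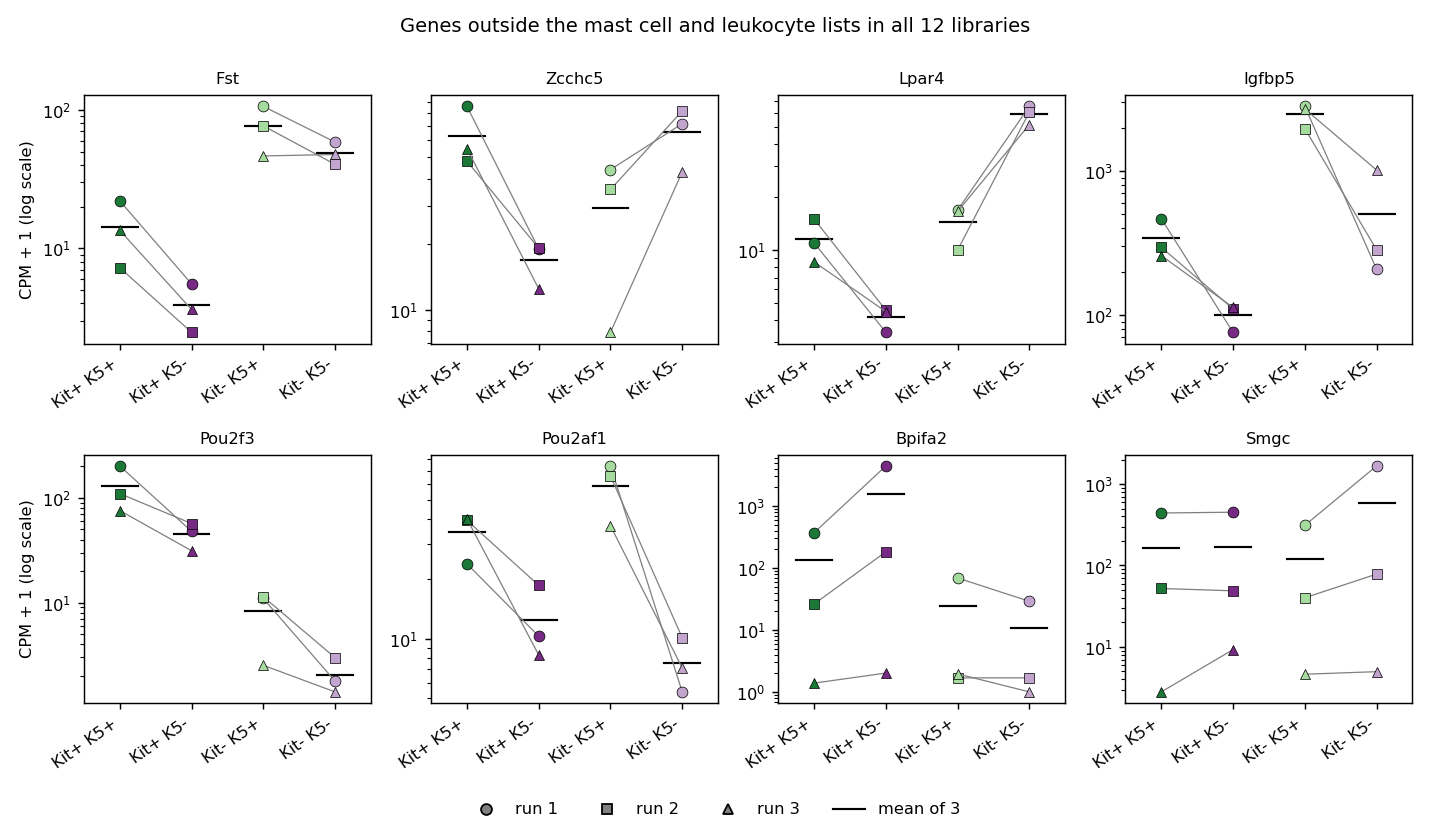
Levels of Fst, Zcchc5, Lpar4, Igfbp5, Pou2f3, Pou2af1, Bpifa2 and Smgc in all 12 libraries, as CPM + 1 on a log axis, by population, with lines joining the libraries of a run. Fst and Zcchc5 do not overlap between the Kit+ populations, and Bpifa2 spans 0.386 to 4417 CPM over the 6 Kit+ libraries.

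Among secretory genes, Bpifa2 (chromosome 2, 154008265 to 154016079), which encodes a secreted salivary protein, was the 1 of 20 tested that passed. It had 369, 25.2 and 0.386 CPM in Kit+ cells with Venus and 4417, 181 and 1.02 CPM in those without. Levels varied more by run than by group and the groups overlapped, but K5+ was the lower in each run by 3.58, 2.84 and 1.04 in log2 CPM. Bpifa2 was 8.05-fold lower (log2 -3.01 ± 0.55, adjusted p = 0.0389 with the block, 0.796 without, and up to 0.534 with 1 Kit+ library left out). It did not pass in DESeq2 with the block (adjusted p = 0.297). Smgc, another secreted product of the developing gland, shared the spread between runs, with 440, 51.2 and 1.80 CPM against 450, 47.9 and 8.27 CPM, but not the difference (log2 -0.50, adjusted p = 0.726). Lpo, which encodes lactoperoxidase, had 33.1, 13.4 and 7.60 CPM against 292, 42.3 and 6.24 CPM (log2 -1.69, adjusted p = 0.412). Dcpp1, one of several near-identical neighbours on chromosome 17 whose reads can be split, had 135, 139 and 80.5 CPM against 546, 295 and 68.2 CPM (log2 -1.04, adjusted p = 0.476). Both were lower in K5+ in runs 1 and 2 and higher in run 3. Over the 20 tested genes the median was -0.58, and 10 were lower in 3 of 3 runs, against 19.6% of all genes tested. Without Kit+ K5- replicate 1 the median of the secretory list was -0.45.

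Genes of the basal layer and duct gave no call. Of 21 tested, 0 passed, 18 had a positive difference, 11 were higher in 3 of 3 runs against 18.4% of all genes, and the median was 0.47, or 0.24 without Kit+ K5- replicate 1. Trp63, the p63 transcription factor of basal cells, had 75.2, 279 and 313 CPM with Venus and 30.9, 281 and 345 CPM without it, so that run 1 was low in both. Itga6, a laminin-binding integrin, had 508, 475 and 523 CPM against 279, 415 and 389 CPM, without overlap (log2 0.47 ± 0.30, adjusted p = 0.609). Groups without overlap in this direction were seen in 4.86% of all genes tested. Col17a1, a collagen of hemidesmosomes, had 35.4, 59.5 and 51.8 CPM against 7.58, 37.5 and 40.1 CPM, and its groups overlapped.

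The same list differed widely by Venus in Kit- cells, where 4058 genes passed with the block (23.8%), 1872 of them higher (11%) and 2186 lower (12.8%). There 18 of the 21 basal and duct genes rose, 1 fell, and the median was 2.77. The difference between the Kit+ and the Kit- effect was tested over all genes, and 1418 passed with the block (8.33%), 824 with the Kit+ effect above and 594 with it below the Kit- effect, or 684 without the block (4.02%). Of the 21 genes, 12 had a Kit+ effect below the Kit- effect with the block and 5 without it, and 1 had it above. The 2 effects differed by -2.29 in log2 for Itga6 (adjusted p = 0.00671 with the block, 0.00929 without) and by -3.54 for Krt14 (adjusted p = 0.0251 with the block, 0.117 without).

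These directions depend on the scaling. Upper-quartile scaling gave 669 genes above and 841 below. Scaling to the general epithelium genes, which are scarcer in Kit- K5- cells, gave 8607 above and 148 below and moved the median of all genes in this test from -0.07 to 1.63. Of the 21 basal and duct genes 1 was then below and 2 above, Itga6 did not pass (log2 -0.68, adjusted p = 0.334), and Krt14 differed by -2.02 (adjusted p = 0.0494).

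Cdh1 had 654, 573 and 528 CPM in Kit- K5+ and 171, 149 and 198 CPM in Kit- K5- libraries. Its 2 effects differed by -1.57 (adjusted p = 0.00744 with the block, 0.0342 without), and by 0.07 with scaling to epithelium genes (adjusted p = 0.897). Genes of mesenchyme summed to 610, 948 and 721 CPM with Venus and 894, 578 and 774 CPM without it among Kit+ cells, against 18858, 17472 and 11611 CPM in the Kit- K5- libraries. The Kit+ populations overlapped in both. Of the 54 genes called in Kit+ cells, 40 were also called in the same direction in Kit- cells. Of all genes tested, 12.8% were called lower and 11% higher in Kit- cells. The test of the difference was passed by 7 of the 54, against 8.33% of all genes tested. The 54 were chosen by their Kit+ difference, which enters that test, so nothing is read from this share.

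Cycling and end bud genes were examined as markers of growing epithelium. Of 24 mitosis genes 0 passed, 19 were higher in K5+ in 3 of 3 runs against 18.4% of all genes, and the median was 0.32, or 0.27 without Kit+ K5- replicate 1 and 0.23 with scaling to epithelium genes. Top2a, a topoisomerase of dividing cells, had 685, 865 and 1087 CPM with Venus and 507, 675 and 762.4 CPM without it. Ccnb1, the mitotic cyclin B1, had 67.8, 60.5 and 87.2 CPM against 38.5, 46.1 and 50.2 CPM, without overlap (log2 0.67 ± 0.18, adjusted p = 0.216 with the block, 0.556 without). Ccnb1 was chosen after its values were seen, and 4.86% of all genes tested lacked overlap in this direction. The 24 genes summed to 5807, 5348 and 6721 CPM with Venus and 4268, 4742 and 5176 CPM without it (exact permutation p = 0.1, two-sided, 0.325 adjusted over 26 lists). Genes of DNA replication did not share this, with a median of -0.11 over 23 tested. Cdkn1c, a cyclin-dependent kinase inhibitor, had 410, 472 and 352 CPM against 154, 306 and 238 CPM (log2 0.80, adjusted p = 0.427).

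Of 18 distal end bud genes 0 passed and the median was 0.13. Myb, a transcription factor of progenitor cells, had 309, 162 and 152 CPM with Venus and 130, 123 and 99.6 CPM without it, without overlap (log2 0.79 ± 0.22, adjusted p = 0.230). Myb was chosen after its values were seen, and 4.86% of all genes tested lacked overlap in this direction. Ccnd1, cyclin D1, ran the other way, with 490, 729 and 477 CPM against 921, 882 and 664 CPM (log2 -0.60, adjusted p = 0.460). Sox10, a regulator of end bud progenitors and of acinar cells, was level within runs, at 75.0, 211 and 163 CPM against 88.0, 178 and 172 CPM.

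Of 15 genes of Kit signalling 0 passed, with a median of 0.04. Kitl, which encodes stem cell factor, the ligand of Kit, had 279, 225 and 296 CPM with Venus and 69.2, 147 and 176 CPM without it. Its groups did not overlap, which 4.86% of all genes tested showed in this direction. The difference did not pass (log2 1.02 ± 0.36, adjusted p = 0.363 with the block, 0.561 without). Gab2, an adaptor below Kit in mast cells, had 4.96, 1.92 and 5.41 CPM against 28.4, 5.77 and 9.87 CPM (log2 -1.75, adjusted p = 0.299).

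Other lists fixed for the tissue had 0 calls each. General epithelium (22 tested) had a median of -0.05 and sums of 4146, 2746 and 2174 CPM with Venus and 3538, 2725 and 2112 CPM without it, which are matched closely within runs 2 and 3. Medians were 0.13 for FGF and ERK feedback, 0.14 for Wnt, -0.04 for Notch, -0.36 for retinoic acid, 0.09 for luminal duct and 0.06 for myoepithelial genes. Among lists for other cell types they were -0.04 for mesenchyme, -0.52 for Schwann cells, -0.09 for erythroid cells, 0.23 for endothelium, -0.81 for skeletal muscle, -0.01 for melanocytes and -1.30 for neurons, whose 10 genes all had differences below 0 at low levels, with sums of 3.68 CPM in K5+ and 15.2 CPM in K5- in run 1 and a median of -0.24 without that run. Scaling to general epithelium genes moved the median of all genes from -0.04 to -0.12, and the medians of the luminal duct, myoepithelial and Kit signalling lists then changed sign to -0.03, -0.05 and -0.05, as did those of the immediate early and stress list (-0.09) and of the cell cycle exit list (-0.02). Without Kit+ K5- replicate 1 the medians were 0.32 for mesenchyme, 0.14 for Schwann cells, 0.67 for endothelium, -0.16 for skeletal muscle and -0.68 for neurons. Immediate early and stress genes had a median of 0.00. The 10 tested genes of the mitochondrial genome had 0.44, which moved to 0.08 without run 1.

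**Figure D5:**
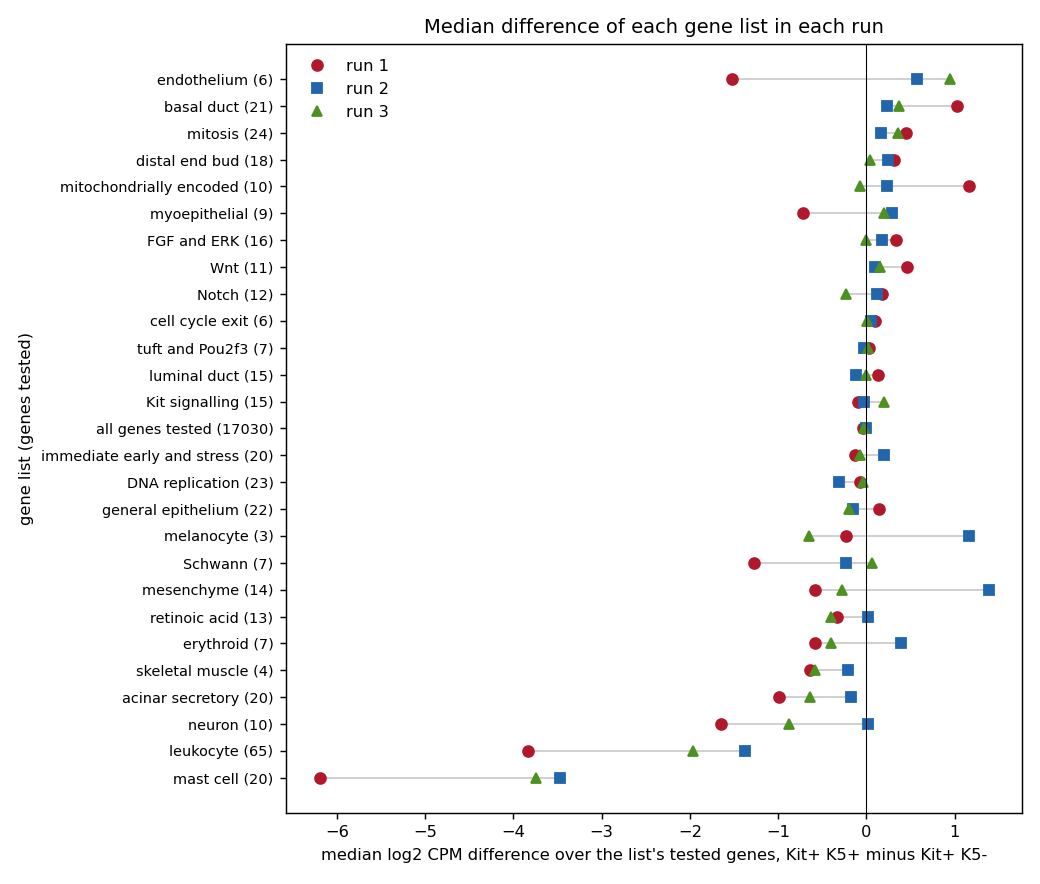
Median over the tested members of each of 26 gene lists, and over all genes tested, of the difference in log2 CPM between the Kit+ K5+ and the Kit+ K5- library, 1 point per run. The mast cell list lies at -6.20, -3.47 and -3.74 and the leukocyte list at -3.84, -1.37 and -1.96, while most epithelial lists lie within 1 of 0.

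Differences in log2 CPM correlated across the 17030 genes at 0.191 between runs 1 and 2, 0.266 between runs 1 and 3 and 0.139 between runs 2 and 3, and at 0.144, 0.235 and 0.101 with the lists set aside, where genes are not independent replicates. At least 2-fold lower in K5+ were 3271, 1289 and 2564 genes in runs 1, 2 and 3, and at least 2-fold higher 981, 1115 and 1143 genes. Run 1, which holds the K5- library that stood apart, thus had the most genes lower in K5+.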

How the data were processed

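RNA of 12 libraries of sorted cells, 3 per population, was sequenced. The deposited values are whole-number counts of reads per gene symbol. Per the labels' protocols, the authors mapped reads to GRCm38/mm10 with STAR 2.4.2a and counted them with featureCounts (version 1.4.6-p3, beside Picard 1.129, FastQC and the build GRCm38.p3, per the submitters' processing notes). The sources used here give neither the strand setting nor the annotation release, so overlapping and antisense genes may share reads. The 12 libraries held 5589037 to 13724364 counts. The series table and the single tables differed in 0 cells. Positions came from GENCODE M21 on GRCm38 and matched 475 of 478 genes described.

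edgeR 4.0.16 in R 4.3.3 was used on the counts (filterByExpr, TMM scaling, quasi-likelihood F test, Benjamini-Hochberg adjustment over all genes tested, threshold 0.05). All 12 libraries entered 1 fit with 1 coefficient per population and a block on run, leaving 6 residual degrees of freedom, or 8 without the block. The block is used because the comparison pairs libraries by run. That pairing follows the runs of library numbers, and the labels do not state it. As a check, in Kit+ cells the deviations of libraries from their population means correlated within runs, at r of 0.344, 0.263 and 0.369. Values with no mention of the block are from the fit with it. Log2 differences are Kit+ K5+ minus Kit+ K5- with a standard error taken from the F statistic. CPM of a gene are scaled by TMM. Alternatives were DESeq2 1.42.0, limma-voom (limma 3.58.1), other scalings and filters, the 6 Kit+ libraries alone, and leaving out libraries or runs.

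The genes, lists and comparisons were chosen with earlier results of these data known. The rule named the gate genes and Cpa3, up to 30 called genes in each direction by adjusted p, every called member and the 4 most abundant members of each list, up to 15 genes in each direction outside the mast cell and leukocyte lists with at least 10 CPM and the largest smallest-of-3 difference by run, and the 10 smallest adjusted p-values for the difference between Kit+ and Kit- effects. Some genes the rule gives are not written out, and 1 gene of the last group is not reported here. Krt14, Slc18a2, Hpgds, Il1rl1, Csf1r, Ptprc, Elf4, Col17a1, Lpo, Ccnb1, Myb and Gab2 fall outside the rule and were chosen after their values were seen. Intervals of counts cover counting error only.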

Additional observations from a re-analysis of the deposited data

Results flagged for a closer look

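Genes are given here where the K5 effect in Kit+ cells and that in Kit- cells differed in edgeR's quasi-likelihood test of that difference (Benjamini-Hochberg adjusted, with the block), among the called genes, the gate genes, the genes higher in each run and the 10 genes with the smallest adjusted p. Values are the log2 effect in Kit+ minus that in Kit- cells. The called genes and the genes higher in each run were chosen by their difference in the Kit+ libraries, which enters this test too. The 10 genes were chosen by the test itself. The choice thus favours large values and small p-values, which are given as a description.

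Among the 10 smallest adjusted p-values were genes that were high in Kit- K5- libraries, of which 9 are given here. These were Mest (5.23), Adam19 (5.44), Adamts12 (4.87), Nr2f2 (3.80), Clcn5 (3.31), Klf14 (5.95), Slitrk6 (6.51), Itm2a (4.99) and Col26a1 (5.40). Mest, an imprinted gene of mesoderm, had 63.7, 128 and 118 CPM in Kit+ K5+ and 69.1, 80.0 and 121 CPM in Kit+ K5- libraries, and 2065, 3476 and 2488 CPM in Kit- K5- libraries. In the Kit+ populations its groups overlapped.

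Genes with higher values in Kit+ K5+ than Kit+ K5- libraries and lower values in Kit- K5+ than Kit- K5- libraries were Lpar4 (3.84, adjusted p = 2.48e-04), Zcchc5 (3.33), Thbs2 (2.94, adjusted p = 0.0139) and Tmx3 (1.96, adjusted p = 0.00681), and Fst differed by 1.55 (adjusted p = 0.0496 with the block, 0.208 without). Genes whose effect in Kit+ cells lay below that in Kit- cells were Mcpt4 (-16.00, a fitted value of a gene at 0 counts and no bound), Cma1 (-7.66, adjusted p = 0.0168), Gzmb (-8.65, adjusted p = 0.0179), Dock2 (-3.88, adjusted p = 0.0166) and Bpifa2 (-4.29, adjusted p = 0.00886). Of these, Cma1, Gzmb, Dock2 and Bpifa2 did not pass without the block (adjusted p = 0.367, 0.0820, 0.0883 and 0.444). Gzmb was near 0 counts in Kit+ K5+ and Kit- K5- libraries, so its value too rests on few counts (standard error 1.97). Cdh1 differed by -1.57, with overlapping Kit+ groups and higher values with Venus in Kit- cells. With scaling to general epithelium genes Cdh1 did not pass (0.07, adjusted p = 0.897), and with upper-quartile scaling Fst did not (1.39, adjusted p = 0.0728).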

How the results depend on the processing

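For K5 in Kit+ cells, the 54 genes called with the replicate block became 0 with no replicate block, 120 with the 6 Kit+ libraries alone (0 with no block), 247 in DESeq2, 119 with scaling to general epithelium genes and 410 with no filter. They became 7 without run 1, 11 without run 2 and 5 to 59 without 1 Kit+ library. With the mast cell and leukocyte lists set aside, the 6 genes became 0 with no block, 63 with the Kit+ libraries alone (1 with no block), 160 in DESeq2, 27 in limma-voom, 2 with upper-quartile scaling, 61 with epithelial scaling, 333 with no filter, 3 with a minimum mean of 1 CPM and 39 with the mast cell list alone set aside. They became 0 without run 1, 0 without run 2, 21 without run 3 and 0 to 16 without 1 Kit+ library. For the difference between Kit+ and Kit- effects, the 1418 genes became 684 with no block, 2225 in DESeq2, 8755 with epithelial scaling, 2385 with no filter, 214 without run 2, 877 without run 3 and 763 to 1267 without 1 Kit+ library. Leaving out 1 library leaves 2 in its population and lets more genes through the filter.

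The log2 difference of the summed mast cell genes was -3.45, and -4.29 to -1.96 without 1 Kit+ library. Of the 54 calls, 52 were kept in DESeq2, 45 in limma-voom and 54 with no filter, and 3 (Cma1, Laptm5 and Srgn) passed without any 1 library. No called gene changed direction under these alternatives. Of 17 uncalled genes followed, 6 changed sign under at least 1 alternative. Depth limits the called genes with few counts, since 10 had 3 counts or fewer over the K5+ libraries. For the other changes the cause was not tested.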

Other observations

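Every one of the 12 libraries held transcripts of both Xist, which is made in female cells, at 700 to 2365 CPM, and of 4 genes of the Y chromosome, with at least 106 counts for each gene, so RNA of female and of male cells was present in each library.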
